A study of Rattus norvegicus with 16 samples.

Results

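The 69 genes described here encode chemokines, interleukins, ligands and receptors of the TNF superfamily, and the NF-kB subunits with their inhibitors. They were chosen by symbol alone: names that begin with Ccl, Cxcl, Ccr, Cxcr or Il followed by a number, with Cx3c, Tnfsf, Tnfrsf or Nfkb, and the genes Rel, Rela and Relb. They are 69 of the 13222 genes in the deposited table, and all 69 are protein coding. By role they are 8 chemokine ligands, 6 chemokine receptors, 8 interleukins, 22 interleukin receptors and binding proteins, 4 TNF superfamily ligands, 9 TNF receptor superfamily members and 11 NF-kB subunits and inhibitors. The name pattern also takes in Il4i1, which is an amino acid oxidase induced by interleukin 4 and not a cytokine.

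The study measured poly(A) RNA by sequencing in glomeruli sieved from the kidneys of male Wistar rats on day 11 of a podocyte injury model. Puromycin aminonucleoside (PAN), a toxin of podocytes that leads to heavy protein loss in urine, was injected intravenously. There were 4 groups of 4 rats: control (labelled Ctl and healthy), PAN with a sham vehicle, PAN with pioglitazone, and PAN with GQ-16, with vehicle or drug given daily by gavage. Pioglitazone, a drug used in diabetes, activates the nuclear receptor PPARγ, on which GQ-16 acts as a partial agonist. The labels give no dose, litter or batch, and do not say whether control rats were given vehicle. They do not state outright that each library came from a separate animal, so p-values measure the spread between these libraries, called rats below. Replicate numbers only name the rats of a group.

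Chemokines are small secreted proteins that guide leukocytes through receptors coupled to G proteins, whereas interleukins and TNF family ligands act on receptors that signal through JAK and STAT proteins, TRAF adaptors or both. Many of these routes release NF-kB dimers, which inhibitors of the IkB family hold in the cytoplasm, and the subunit p100 (Nfkb2) with RelB forms a slower branch of the same system. In the glomerulus such genes are known both from resident podocytes, mesangial cells and endothelium and from incoming macrophages and T cells, and they are a recurrent theme in proteinuric kidney disease.

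NF-kB acts through kB sites in DNA. Several of the 69 genes carry such a site close to their start, both among those that rose with PAN (below) and among the others. RefSeq promoters (build GRCr8, from 250 bases before to 50 bases after the start) were matched by symbol for 54 of the 69 genes. The kB consensus was searched on both strands by its standard 10-base form, and the core of the interferon-stimulated response element as TTTC, any 2 bases and TTTC again, also on both strands. A kB match was present in 14 of 54 promoters of these genes (25.9%) and in 4.16% of all 27457 RefSeq promoters of the same length. Among the genes called higher in PAN it was present in 5 of 16 promoters (31.2%), and among the others in 9 of 38. The interferon element was found in 5 of the 54 (9.26%), in 2 of the 16 (12.5%) and in 3.77% of all promoters. These matches are letters in a window and not measured binding. Matches in genes that were not called, among them Nfkb1 and Nfkbia, are not shown. The 5 windows of 120 bases shown are those with a kB match from the genes that rose. They place the site beside the gene whose level is given below. They read 5′ to 3′ along the gene, with the match in capitals, and in Cxcl10 the first run of capitals is the interferon element and the second the kB match, which do not overlap.
Cxcl10 (chr14:15988816-15988935, plus strand): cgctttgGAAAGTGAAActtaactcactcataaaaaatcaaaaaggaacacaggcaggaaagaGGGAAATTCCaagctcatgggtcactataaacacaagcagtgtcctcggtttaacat
Cxcl11 (chr14:15973599-15973718, plus strand): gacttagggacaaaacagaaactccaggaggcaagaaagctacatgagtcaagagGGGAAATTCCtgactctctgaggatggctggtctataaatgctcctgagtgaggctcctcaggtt
Il1r1 (chr9:50034193-50034312, plus strand): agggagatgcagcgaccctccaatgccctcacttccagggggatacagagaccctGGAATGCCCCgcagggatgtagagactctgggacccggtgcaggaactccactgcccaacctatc
Nfkb2 (chr1:255108254-255108373, plus strand): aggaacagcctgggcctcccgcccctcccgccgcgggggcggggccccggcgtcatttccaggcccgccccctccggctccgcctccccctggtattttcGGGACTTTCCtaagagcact
Nfkbie (chr9:22947972-22948091, minus strand): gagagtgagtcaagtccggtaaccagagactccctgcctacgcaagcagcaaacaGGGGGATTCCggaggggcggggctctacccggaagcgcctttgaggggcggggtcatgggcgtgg
The Cxcl10 and Cxcl11 promoters hold the same 10 letters, GGGAAATTCC. The match in Il1r1 is the consensus read on the opposite strand.

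Library totals ran from 13351137 to 21977663 reads in the listed genes, so that 3 reads correspond to between 0.137 and 0.225 CPM (reads scaled to a common library total), and such limits cover counting error only. Mean levels of 63 of the 69 genes reached 2 CPM in all 4 groups. The 13 mitochondrially encoded genes took 13.7 to 39.1% of reads in control rats and 5.83 to 10.6% in PAN rats. As deposited, the median gene was higher in PAN than in control by 0.28 on the log2 scale. Scaling libraries by the median ratio of genes, which places the median gene near 0 by construction, gave -0.003. Changes against control are given on both scales, and the part of the mitochondrial reads in the shift was not tested. All 9 podocyte markers were listed, which fits the labelled tissue, but their summed level ran from 2768 to 9563 CPM among control rats, and the tubule markers at 4472 to 7517 CPM show that the preparations also held tubule RNA. The libraries with title numbers of 25 or higher are 3 of the 4 PAN rats, 1 of 4 with pioglitazone, 1 of 4 with GQ-16 and 0 of 4 controls. What the numbers mark is not stated, and between the PAN and control groups PAN replicate 4 alone separates them from the injection. The treated rats were also injected with PAN, so the split likewise differs between PAN and each drug group.

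PAN-injected rats were compared with controls to see what the injury changed. The 6 largest rises were those of Tnfrsf12a, Cxcl10, Cxcl13, Cxcl11, Il18 and Tnfrsf11b, with log2 changes of 1.61 to 2.19. Of the 69 genes, 20 were higher in PAN and 0 were lower by limma (adjusted p under 0.05), beside 22.3% of all genes called in either direction. That is 29.0% of the 69 genes, close to the share among all genes, of which 21.7% were called higher and 0.522% lower. The limma test at an unadjusted p under 0.05 gave 33 genes, beside 42.1% of all genes. Of the 69 log2 changes, 59 were positive, beside 11010 of all 13222 genes, with a median of 0.44 against 0.28 for all genes. With median-ratio scaling 7 genes were higher and 1 was lower, beside 8.63% of all genes called, and the medians were 0.17 and -0.003. In these whole glomeruli a change in the number of cells of a type and a change in RNA per cell cannot be told apart.

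The 7 genes called higher on both scales were Tnfrsf12a, Tnfrsf11b, Il17re, Cxcl13, Cxcl11, Il18 and Nfkbie. The other 13 called as deposited were Cxcl10, Cxcl12, Cx3cr1, Il34, Il15, Il1r1, Il3ra, Il6st, Il6r, Il17rc, Tnfsf15, Nfkb2 and Relb. All 20 changes stayed positive with median-ratio scaling, with values from 0.29 to 1.91.

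**Figure D1:**
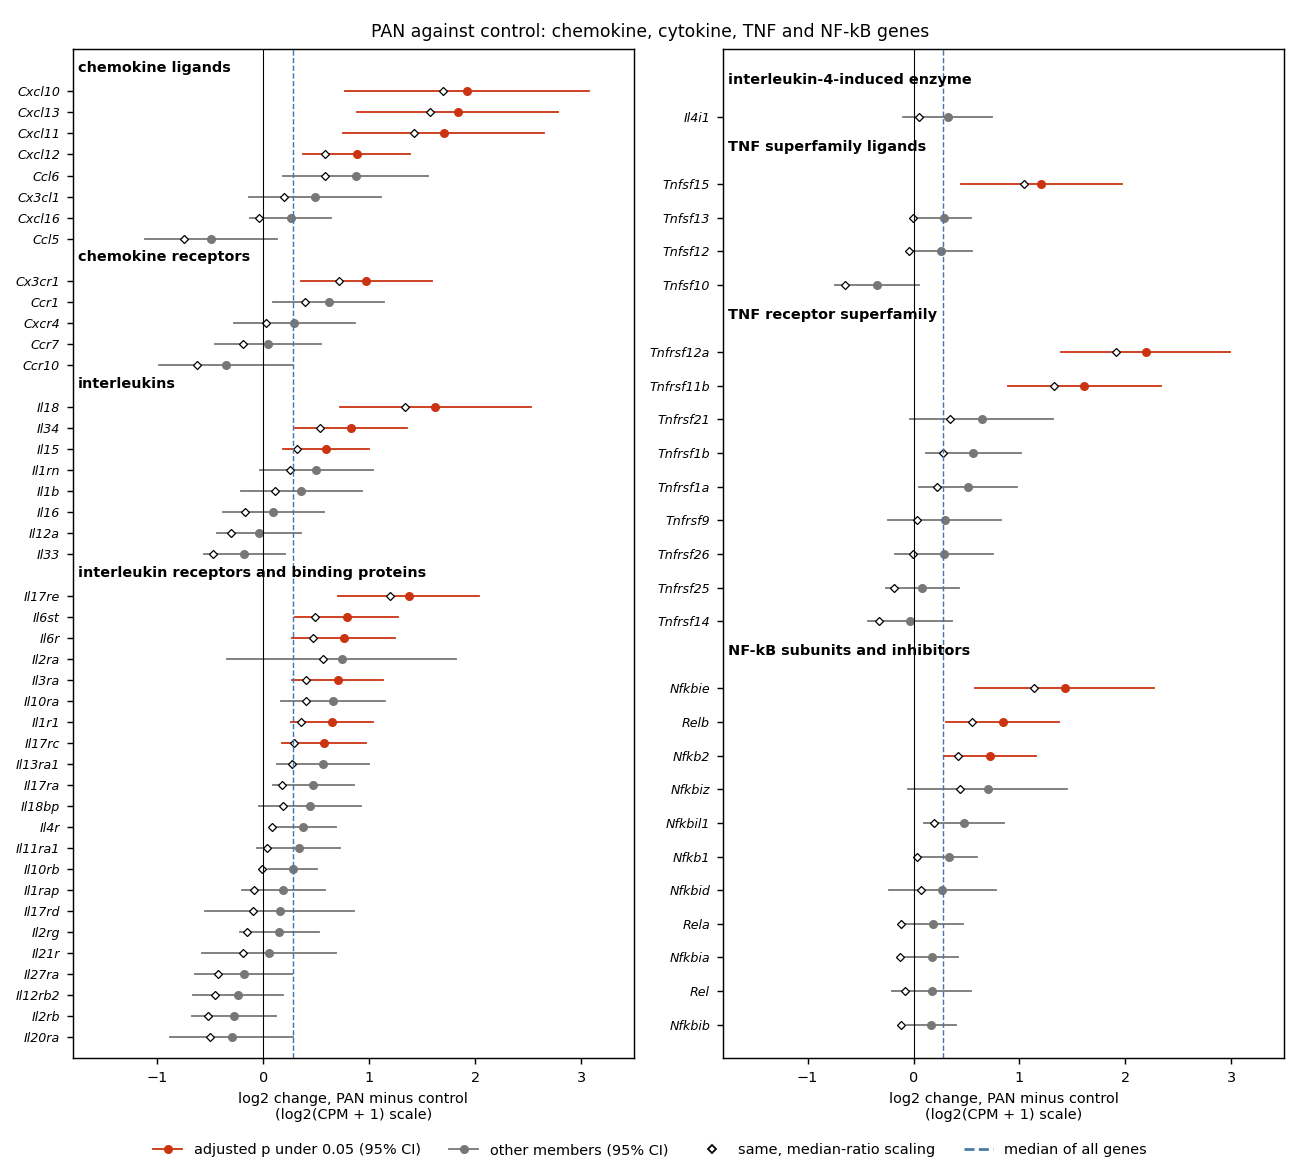
Log2 change between PAN and control of the genes reported here on the log2(CPM + 1) scale, by role, with 95% confidence intervals from limma (circles, deposited scaling) and the value with median-ratio scaling (diamonds). The 20 called genes, in red, all lie to the right of the dashed line at 0.28 that marks the median of all genes, and the diamonds sit to the left of the circles.

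Among the chemokine ligands, 4 of 8 rose and none fell, beside 21.7% of all genes called higher. With median-ratio scaling 2 of the 8 were called higher, beside 7.12% of all genes. Cxcl10, an interferon-inducible ligand of CXCR3, was at 7.601, 1.48, 1.23 and 2.87 CPM in the control rats and at 39.2, 8.79, 8.18 and 9.46 CPM in the PAN rats. Every PAN rat was above every control rat, and PAN replicate 1 stood far above the other PAN rats. Its log2 change was 1.92 (SE 0.543, limma adjusted p 0.0245), and 1.70 with median-ratio scaling, where it no longer passed (limma adjusted p 0.0518). Cxcl11, the neighbouring ligand of the same receptor, was at 17.2, 5.24, 7.24 and 12.5 CPM in control and at 67.5, 27.3, 32.6 and 20.8 CPM in PAN. The groups did not overlap, and the change was 1.70 (SE 0.448, limma adjusted p 0.0182) or 1.43 with median-ratio scaling (limma adjusted p 0.0370). 

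Cxcl13, which attracts B cells through CXCR5, was at 11.6, 2.98, 4.02 and 7.12 CPM in control and at 54.2, 28.5, 19.5 and 8.87 CPM in PAN. PAN replicate 4 lay below control replicate 1, so the groups overlapped, and the change was 1.83 (SE 0.446, limma adjusted p 0.0127) or 1.57 with median-ratio scaling (limma adjusted p 0.0271). Cxcl12, the ligand of CXCR4 made by stromal cells and podocytes, was at 47.8, 26.98, 26.9 and 29.0 CPM in control and at 74.1, 69.8, 58.7 and 40.4 CPM in PAN. Again only PAN replicate 4 lay inside the control range, and the change of 0.88 (SE 0.238, limma adjusted p 0.0202) was 0.59 with median-ratio scaling (limma adjusted p 0.0718). Cx3cl1, the membrane-bound chemokine fractalkine, was at 50.4, 27.9, 42.5 and 66.1 CPM in control and at 113, 65.6, 43.7 and 48.4 CPM in PAN. Here only PAN replicate 1 was above the control rats, and the change of 0.49 did not pass (limma adjusted p 0.210, 0.19 with median-ratio scaling). The other 3 ligands, Ccl5, Ccl6 and Cxcl16, changed by -0.50 to 0.87 and did not pass. Ccl2 and Cxcl1 are not analysed here.

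Of the 6 chemokine receptors only Cx3cr1, the fractalkine receptor carried by monocytes and macrophages, rose, beside 21.7% of all genes called higher. Its levels were 4.17, 3.73, 3.38 and 5.44 CPM in control and 17.98, 10.0, 6.81 and 5.24 CPM in PAN. PAN replicate 4 lay within the control range, and the change was 0.97 (SE 0.292, limma adjusted p 0.0300), or 0.72 with median-ratio scaling, where it did not pass (limma adjusted p 0.131). Cxcr4, the receptor of Cxcl12, was at 7.92, 7.39, 7.37 and 4.94 CPM in control and 14.9, 7.26, 9.66 and 4.98 CPM in PAN. It thus overlapped between groups, with a change of 0.29 (limma adjusted p 0.407) and 0.02 with median-ratio scaling. The receptors Ccr1, Ccr7 and Ccr10 changed by -0.35 to 0.62 without passing.

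Among the interleukins 3 of 8 rose, beside 21.7% of all genes called higher, and with median-ratio scaling 1 did, beside 7.12%. Il18, a cytokine of the interleukin 1 family that caspase-1 activates, was at 40.2, 9.09, 9.52 and 22.1 CPM in control and at 63.7, 49.2, 57.2 and 47.0 CPM in PAN. The PAN rats were closely spaced and all above the control rats, which varied widely. The change was 1.62 (SE 0.424, limma adjusted p 0.0176) and 1.34 with median-ratio scaling (limma adjusted p 0.0347). Il34, an alternative ligand of the CSF1 receptor on macrophages, was at 23.1, 12.1, 15.6 and 17.2 CPM in control and at 53.7, 30.8, 21.2 and 23.2 CPM in PAN. PAN replicate 3 lay below control replicate 1, and the change was 0.82 (SE 0.250, limma adjusted p 0.0312) or 0.54 with median-ratio scaling (limma adjusted p 0.117). Il15, a growth factor of NK and memory T cells, was at 10.53, 6.74, 7.24 and 12.5 CPM in control and 15.3, 14.7, 14.96 and 11.6 CPM in PAN. PAN replicate 4 was below control replicate 4, and the change was 0.59 (SE 0.192, limma adjusted p 0.0385), or 0.32 with median-ratio scaling (limma adjusted p 0.163). The other 5 interleukins, Il1b, Il1rn, Il12a, Il16 and Il33, changed by -0.18 to 0.50 and did not pass.

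Of the 22 interleukin receptors and binding proteins 6 rose (27.3%, beside 21.7% of all genes called higher) and none fell. With median-ratio scaling 1 of them was called higher, beside 7.12% of all genes. Il17re, the receptor subunit for IL-17C, was at 1.81, 0.676, 0.664 and 1.65 CPM in control and at 7.55, 4.73, 5.04 and 2.14 CPM in PAN. The groups did not overlap, and the change was 1.37 (SE 0.314, limma adjusted p 0.00910) and 1.19 with median-ratio scaling (limma adjusted p 0.0162). Its level in control was under the 2 CPM that a gene had to reach in 8 libraries to be listed, so its listing depended on the groups where it was higher. Il1r1, the signalling receptor of interleukin 1, was at 33.3, 28.5, 33.5 and 40.3 CPM in control and at 57.4, 50.9, 50.7 and 54.4 CPM in PAN. All PAN rats were above all control rats with little spread within either group, and the change was 0.65 (SE 0.184, limma adjusted p 0.0249), or 0.35 with median-ratio scaling (limma adjusted p 0.223).

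Il6st (gp130), the signal-transducing subunit shared by the interleukin 6 family, was at 171, 141, 128 and 166 CPM in control and at 381, 253, 221 and 217 CPM in PAN. The groups did not overlap, PAN replicate 1 was highest, and the change was 0.79 (SE 0.230, limma adjusted p 0.0270) or 0.49 with median-ratio scaling (limma adjusted p 0.168). Its partner Il6r, the interleukin 6 receptor, was at 19.8, 10.8, 10.47 and 12.2 CPM in control and at 34.0, 21.5, 20.8 and 16.7 CPM in PAN. One PAN rat lay below control replicate 1, and the change was 0.76 (SE 0.230, limma adjusted p 0.0316), or 0.47 with median-ratio scaling (limma adjusted p 0.116). Il3ra, the alpha subunit of the interleukin 3 receptor, was at 39.9, 23.5, 26.4 and 44.6 CPM in control and 61.0, 55.9, 56.0 and 42.5 CPM in PAN. It changed by 0.70 (SE 0.203, limma adjusted p 0.0266), or 0.41 with median-ratio scaling (limma adjusted p 0.0744). Il17rc, a subunit of the interleukin 17 receptor and named here after its values were seen, rose by 0.57 (limma adjusted p 0.0403), or 0.29 with median-ratio scaling (limma adjusted p 0.197). The other 16 receptors and binding proteins changed by -0.30 to 0.74 and did not pass. Il4i1 changed by 0.32 (limma adjusted p 0.218).

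Of the 9 members of the TNF receptor superfamily 2 rose (22.2%), about the 21.7% of all genes called higher. The family held the gene with the smallest p among the 69, Tnfrsf12a, which encodes Fn14, the receptor of TWEAK. It was at 22.6, 6.39, 7.12 and 12.0 CPM in control (mean 12.0 ± 7.48 SD, n = 4) and at 69.1, 58.5, 52.5 and 34.8 CPM in PAN (mean 53.7 ± 14.3). Every PAN rat was above every control rat, the lowest being PAN replicate 4. The change was 2.19 (SE 0.378, limma adjusted p 0.00177) and 1.91 with median-ratio scaling (limma adjusted p 0.00263). Tnfrsf11b, osteoprotegerin, a secreted decoy that binds RANKL and TRAIL, was at 36.0, 13.4, 9.77 and 25.2 CPM in control and at 77.1, 60.8, 36.6 and 71.2 CPM in PAN. The groups were separate by a narrow margin between PAN replicate 3 and control replicate 1, and the change was 1.61 (SE 0.341, limma adjusted p 0.00575) or 1.32 with median-ratio scaling (limma adjusted p 0.0117).

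The classical TNF receptors did not pass. Tnfrsf1a, the broadly expressed receptor with a death domain, was at 104, 80.7, 78.8 and 102 CPM in control and at 210, 122, 125 and 88.9 CPM in PAN, a change of 0.52 (limma adjusted p 0.0876) or 0.22 with median-ratio scaling. Tnfrsf1b, the receptor more typical of leukocytes and endothelium, was at 11.9, 9.84, 12.7 and 15.2 CPM in control and 26.6, 19.8, 18.6 and 12.1 CPM in PAN, a change of 0.56 (limma adjusted p 0.0624) or 0.28 with median-ratio scaling. In both genes PAN replicate 4 lay within the control range and the other 3 PAN rats above it. The other 5 receptors of the family changed by -0.03 to 0.65 without passing.

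Of the 4 TNF superfamily ligands Tnfsf15, also called TL1A, rose, beside 21.7% of all genes called higher. It was at 2.58, 0.576, 0.474 and 0.865 CPM in control and at 7.12, 2.62, 2.88 and 2.87 CPM in PAN, with PAN replicate 2 just above control replicate 1. The change was 1.21 (SE 0.357, limma adjusted p 0.0284) and 1.04 with median-ratio scaling (limma adjusted p 0.0584). Like Il17re it was under 2 CPM on average in control, so its listing depended on the groups where it was higher. Every PAN rat was above 2 CPM, and its call in PAN is not independent of that filter. Tnfsf10 (TRAIL), an inducer of cell death, was at 76.1, 56.3, 61.6 and 98.1 CPM in control and at 52.0, 63.5, 60.9 and 48.8 CPM in PAN. The change of -0.34 did not pass as deposited (limma adjusted p 0.167), whereas with median-ratio scaling Tnfsf10 was the only one of the 69 genes called lower, by -0.64 (limma adjusted p 0.0329). Tnfsf12 (TWEAK), the ligand of Fn14 and named after its values were seen, averaged 49.6 CPM in control rats and 59.3 CPM in PAN rats. The change was 0.26 (limma adjusted p 0.164) as deposited and -0.04 with median-ratio scaling, with no call on either scale.

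All 11 NF-kB subunits and inhibitors had positive changes as deposited, beside 11010 of all 13222 genes. With median-ratio scaling 4 of them were negative, beside 6680 of all genes. As deposited 3 of 11 were called (27.3%), beside 21.7% of all genes called higher, and with median-ratio scaling 1 was, beside 7.12%. Nfkbie, which encodes the inhibitor IkB epsilon, was at 42.5, 12.3, 14.3 and 18.3 CPM in control and at 82.6, 55.1, 50.9 and 35.8 CPM in PAN. PAN replicate 4 lay below control replicate 1, and the change was 1.43 (SE 0.399, limma adjusted p 0.0231) and 1.14 with median-ratio scaling (limma adjusted p 0.0490). Nfkb2, the precursor p100 of the p52 subunit, was at 49.0, 32.04, 35.3 and 50.1 CPM in control and at 94.6, 62.4, 69.3 and 51.9 CPM in PAN. The groups did not overlap, and the change was 0.72 (SE 0.204, limma adjusted p 0.0248) or 0.42 with median-ratio scaling (limma adjusted p 0.0792). Relb, the partner of p52, was at 30.0, 14.1, 18.4 and 24.5 CPM in control and at 49.8, 37.5, 38.4 and 30.2 CPM in PAN. The lowest PAN rat and the highest control rat were almost level, and the change was 0.84 (SE 0.251, limma adjusted p 0.0290) or 0.55 with median-ratio scaling (limma adjusted p 0.0725).

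The subunits of the classical dimer did not pass. Nfkb1, the precursor of p50, was at 110, 84.5, 97.1 and 119 CPM in control and at 147, 125, 125 and 119 CPM in PAN, a change of 0.33 (limma adjusted p 0.0639) or 0.03 with median-ratio scaling. Rela (p65) was at 101, 93.4, 96.0 and 118 CPM in control and 134, 113, 125 and 93.3 CPM in PAN, a change of 0.18 (limma adjusted p 0.304) that was -0.12 with median-ratio scaling. Nfkbia, the inhibitor IkB alpha, was at 146, 135, 144 and 155 CPM in control and 163, 160, 197 and 140 CPM in PAN, a change of 0.17 (limma adjusted p 0.264) that was -0.13 with median-ratio scaling. For Rela and Nfkbia the groups overlapped and the sign depended on the scaling.

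**Figure D2:**
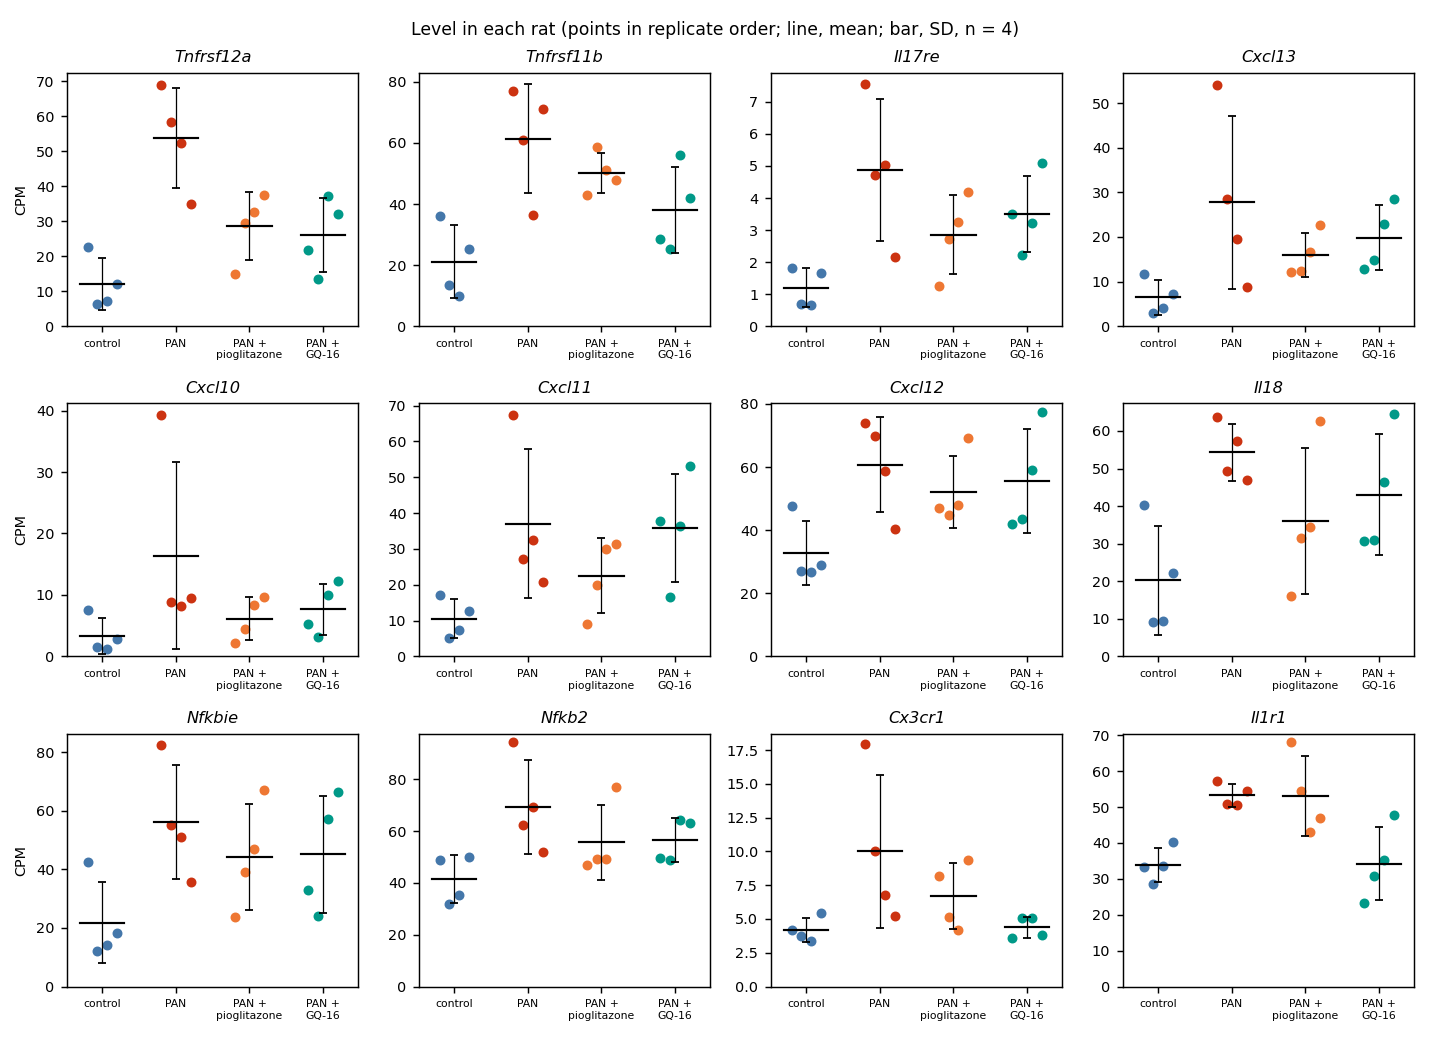
Level in CPM of 12 of the 20 called genes in each of the 16 rats, by group, with the mean (line) and SD (bar, n = 4). PAN replicate 1, the leftmost PAN point, is the highest PAN rat for every gene shown, and PAN replicate 4, the rightmost, is the lowest for Tnfrsf12a, Il17re, Cxcl13, Cxcl11, Cxcl12, Il18, Nfkbie, Nfkb2 and Cx3cr1.

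Genes whose 8 rats did not overlap numbered 13 among the 69, all higher in PAN, beside 22.4% of all genes. PAN replicate 1 was the highest PAN rat for 19 of the 20 called genes and for 54 of all 69, whereas it was highest for 45.8% of all genes. It was the highest of all 16 rats for 40 of the 69, against 26.8% of all genes. PAN replicate 4, the one PAN library numbered under 25, was above all 4 control rats for 12 of the 20, beside 46.1% of all genes. Without PAN replicate 1, 4 genes were called, Cxcl13, Il17re, Tnfrsf11b and Tnfrsf12a, beside 7.93% of all genes. Leaving out control replicate 1 or control replicate 4 gave 25 and 29 calls (beside 37.5% and 28.9%), and fitting only the groups compared gave 14 (beside 11.9%). Leaving out PAN replicate 2 gave 9 calls (beside 9.96%), and leaving out control replicate 2 or control replicate 3 gave 3 each (beside 6.5% and 6.34%). These 3 were Il17re, Tnfrsf11b and Tnfrsf12a in both cases. A pseudocount of 0.1 gave 20 calls (beside 22.4%), and among genes with a mean of at least 10 CPM 16 of 42 were called (beside 23.8% of the genes so tested). The other scalings gave 7 calls with quantile normalization (beside 8.59%) and 6 with voom (beside 7.92%). With the library title number as a covariate only Tnfrsf12a was called, beside 2.97% of all genes. Tnfrsf11b joined it when median-ratio scaling was added (beside 2.88%), and the same pair was called without PAN replicate 1 with median-ratio scaling (beside 4.61%). With libraries numbered under 25 alone, where PAN is 1 rat assumed to vary like the other groups, 0 were called, beside 0.597% of all genes.

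**Figure D3:**
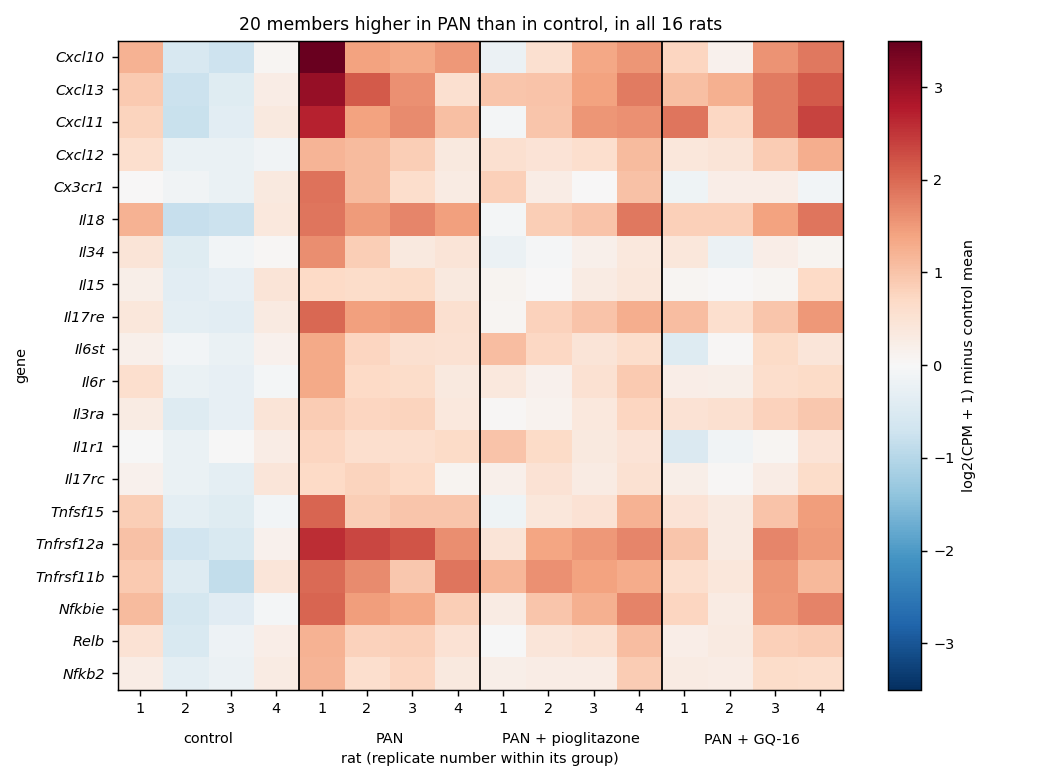
The 20 genes called higher in PAN, in rows by role, and all 16 rats in columns by group, coloured by log2(CPM + 1) minus the control mean of the gene. PAN replicate 1 is the highest PAN rat in 19 of the 20 rows, and PAN replicate 4 lies above all 4 control rats in 12 of them.

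The summed markers of several other cell types also differed between these rats. Beside the marker counts that follow, 21.7% of all genes were called higher in PAN and 0.522% lower. With median-ratio scaling these shares were 7.12% and 1.51%. Of 21 listed leukocyte markers 11 rose in PAN (1 of them also with median-ratio scaling, where 1 marker fell), and their summed level was 402 to 585 CPM in control and 547 to 1598 CPM in PAN. PAN replicate 1 had 1598 CPM and the other PAN rats 828, 648 and 547 CPM, and no leukocyte marker was at 0 reads in any rat. All 7 mesangial and smooth muscle markers rose, from sums of 291 to 789 CPM in control to 1588 to 2695 CPM in PAN, and 6 of them also rose with median-ratio scaling. Of 6 fibroblast markers 3 are listed and 1 rose, also with median-ratio scaling, and their sum was 19.1 to 74.6 CPM in control. It was 2556 CPM in PAN replicate 1 and 290.5, 217.5 and 107 CPM in the other PAN rats, so PAN replicate 1 stood furthest apart by this list. Tubule markers ran the other way, with 4 of 10 lower in PAN (3 with median-ratio scaling) and sums of 2602 CPM in PAN replicate 1 and 7824 CPM in PAN replicate 4. The podocyte sum was 7614 to 10920 CPM in PAN, and 2 of 9 podocyte markers rose (1 with median-ratio scaling). Adding the podocyte sum to the model left Tnfrsf12a as the only call (beside 4.44% of all genes). Adding the leukocyte sum left 0 calls (beside 1.58%), with Tnfrsf12a at a limma adjusted p of 0.0547. The part of these cells in the changes of single genes was not tested.

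**Figure D4:**
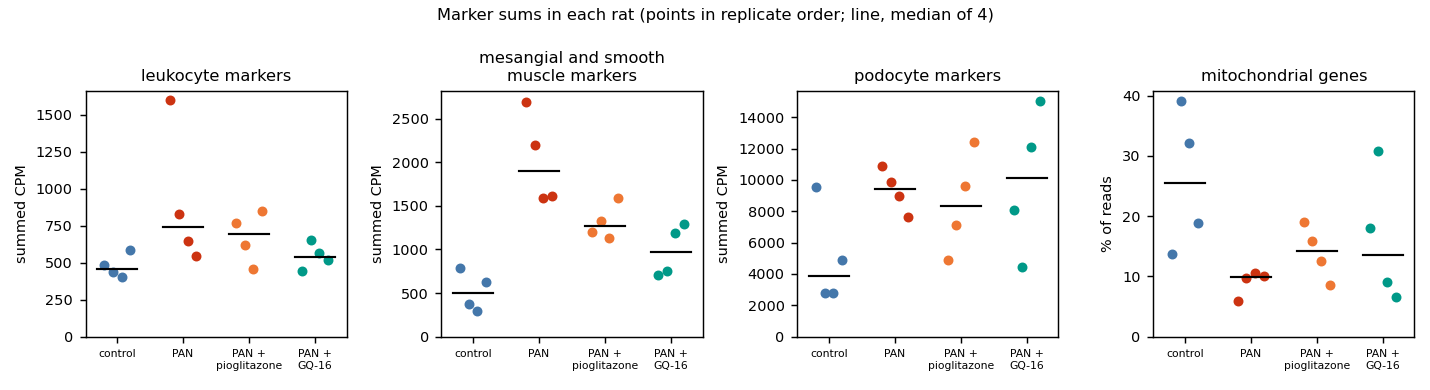
Summed CPM of the leukocyte, mesangial and smooth muscle, and podocyte markers, and the percent of reads in mitochondrially encoded genes, in each rat by group, with the median of 4 rats as a line. PAN replicate 1 stands at 1598 CPM of leukocyte markers, control rats spread widely in podocyte markers and mitochondrial reads, and the mesangial sums of PAN lie above those of control.

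Genes that connect these receptors to their outputs were taken from a list of 54 adaptors, kinases, STAT proteins, SOCS proteins and related receptors, of which 48 are in the table. In PAN 11 of the 48 rose and none fell, beside 21.7% of all genes called higher, with a median change of 0.36. With median-ratio scaling 1 of the 48 rose, beside 7.12% of all genes, with a median of 0.09. The list was thus called about as often as genes in general as deposited, and no more often with median-ratio scaling. That gene was Socs1, an inhibitor of JAK kinases induced by interferon and cytokines, which averaged 3.77 ± 1.59 CPM in control rats and 17.7 ± 3.37 CPM in PAN rats (SD, n = 4). The change was 2.01 (SE 0.348, limma adjusted p 0.00178) and 1.77 with median-ratio scaling (limma adjusted p 0.00306). The other 10 were Csf1r, Vcam1, Csf1, Traf3, Socs2, Ltbr, Irak1, Myd88, Traf2 and Stat5a. Csf1r, the receptor of Il34 and itself one of the leukocyte markers, had the largest change of these, 1.07 (limma adjusted p 0.0192).

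Pioglitazone was compared with PAN alone to see whether treatment changed these genes. None of the 69 was called by limma, beside 0% of all genes, the smallest limma adjusted p being 0.916. At an unadjusted p under 0.05 limma gave 3 genes, beside 3.74% of all genes, and voom on the recovered reads also called 0. Of the 69 changes 59 were negative, beside 9596 of all 13222 genes, with a median of -0.20 against -0.09 for all genes. With median-ratio scaling 52 were negative, beside 7071 of all genes. The same 4 PAN rats chose the 20 called genes and enter this comparison, so the negative sign of all 20 in it is not independent of that choice.

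The 3 genes with the smallest p were Tnfrsf14, Il34 and Tnfrsf12a. Tnfrsf14 (HVEM), the receptor of LIGHT and BTLA, was at 37.3, 23.8, 29.3 and 34.1 CPM in PAN and at 14.9, 19.1, 30.1 and 17.6 CPM with pioglitazone. In pioglitazone replicate 3 it was above 2 of the PAN rats, and the change was -0.61 (95% interval -1.01 to -0.22, unadjusted limma p 0.00468). Il34 was at 14.2, 16, 18.7 and 21.5 CPM with pioglitazone, within its control range, a change of -0.76 (95% interval -1.29 to -0.23, unadjusted limma p 0.00788). Tnfrsf12a was at 14.99, 29.4, 32.6 and 37.4 CPM with pioglitazone, where only replicate 4 exceeded the lowest PAN rat, a change of -0.92 (95% interval -1.72 to -0.12, unadjusted limma p 0.0275). Only Il10rb, a subunit of the interleukin 10 receptor, had no overlap between the groups, with 2.36% of all genes lower without overlap.

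With GQ-16 none of the 69 genes was called by limma against PAN, beside 0.0151% of all genes, and the smallest limma adjusted p was 0.323. At an unadjusted p under 0.05 limma gave 13 genes, all lower with GQ-16, beside 8.27% of all genes, and voom on the recovered reads called 0. Of the 69 changes 61 were negative, beside 10480 of all 13222 genes, with a median of -0.28 against -0.11 for all genes. With median-ratio scaling 50 were negative, beside 6384 of all genes. The same PAN rats chose the 20 called genes, so the signs of those 20 are not independent of that choice here either. Il10ra, the ligand-binding subunit of the interleukin 10 receptor, had the smallest p. It was at 13.3, 6.67, 6.64 and 4.78 CPM in PAN and at 4.07, 3.93, 3.21 and 2.80 CPM with GQ-16, all below the PAN rats. The change was -0.90 (95% interval -1.39 to -0.41, unadjusted limma p 0.00126). Il1r1 was at 23.3, 30.7, 35.3 and 47.7 CPM with GQ-16, also below every PAN rat, a change of -0.67 (95% interval -1.06 to -0.28, unadjusted limma p 0.00229). Cx3cr1 was at 3.595, 5.06, 5.05 and 3.83 CPM with GQ-16, within the control range and below every PAN rat, a change of -0.91 (95% interval -1.53 to -0.29, unadjusted limma p 0.00650). Il10rb was the fourth gene without overlap, beside 3.47% of all genes that were lower without overlap. The leukocyte sum was 445 to 656 CPM with GQ-16 and 456 to 849 CPM with pioglitazone. The mesangial sum was 702 to 1288 CPM with GQ-16, below every PAN rat, and 1127 to 1588 CPM with pioglitazone. The part of these markers in the differences was not tested.

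Tnfrsf12a with GQ-16 was at 21.7, 13.6, 37.3 and 32.03 CPM, between the control and PAN means in 4 of 4 rats. As deposited Tnfrsf12a was not called against PAN, the smallest limma adjusted p in the TNF receptor superfamily being 0.456. Median-ratio scaling, quantile normalization and voom called 0 of all genes. Fits with a rat left out aside, Tnfrsf12a was the only one of the 69 genes called in a comparison of a drug with PAN under an alternative. That was with the podocyte marker sum in the model, a setting chosen after seeing the data. Its change there was -1.03 (limma adjusted p 0.00681), beside 0.265% of all genes called.

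GQ-16 and pioglitazone are the only pair of compounds in the series, and since no dose is given, their readouts are set side by side at the same day but not at doses known to match. None of the 69 genes was called between them by limma, beside 0% of all genes, with a smallest limma adjusted p of 0.724. Limma gave 6 genes at an unadjusted p under 0.05, beside 5.94% of all genes, and voom called 0. Il1r1 was at 68.2, 54.5, 43.0 and 47.0 CPM with pioglitazone, about the PAN level, and the difference with GQ-16 was -0.64 (95% interval -1.04 to -0.25, unadjusted limma p 0.00302). The groups overlapped, since GQ-16 replicate 4 was above 2 pioglitazone rats. Cxcl16, a chemokine that is also a scavenger receptor, was at 148, 136, 90.2 and 112 CPM with pioglitazone and at 92.6, 100, 81.4 and 67.2 CPM with GQ-16. The difference was -0.50 (95% interval -0.88 to -0.12, unadjusted limma p 0.0140). Rel, the lymphoid NF-kB subunit, was at 5.21, 4.34, 3.09 and 5.51 CPM with pioglitazone and at 3.07, 3.26, 3.85 and 2.14 CPM with GQ-16, a difference of -0.44 (95% interval -0.81 to -0.07, unadjusted limma p 0.0242). The absence of calls does not show that levels were alike with the 2 drugs.

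**Figure D5:**
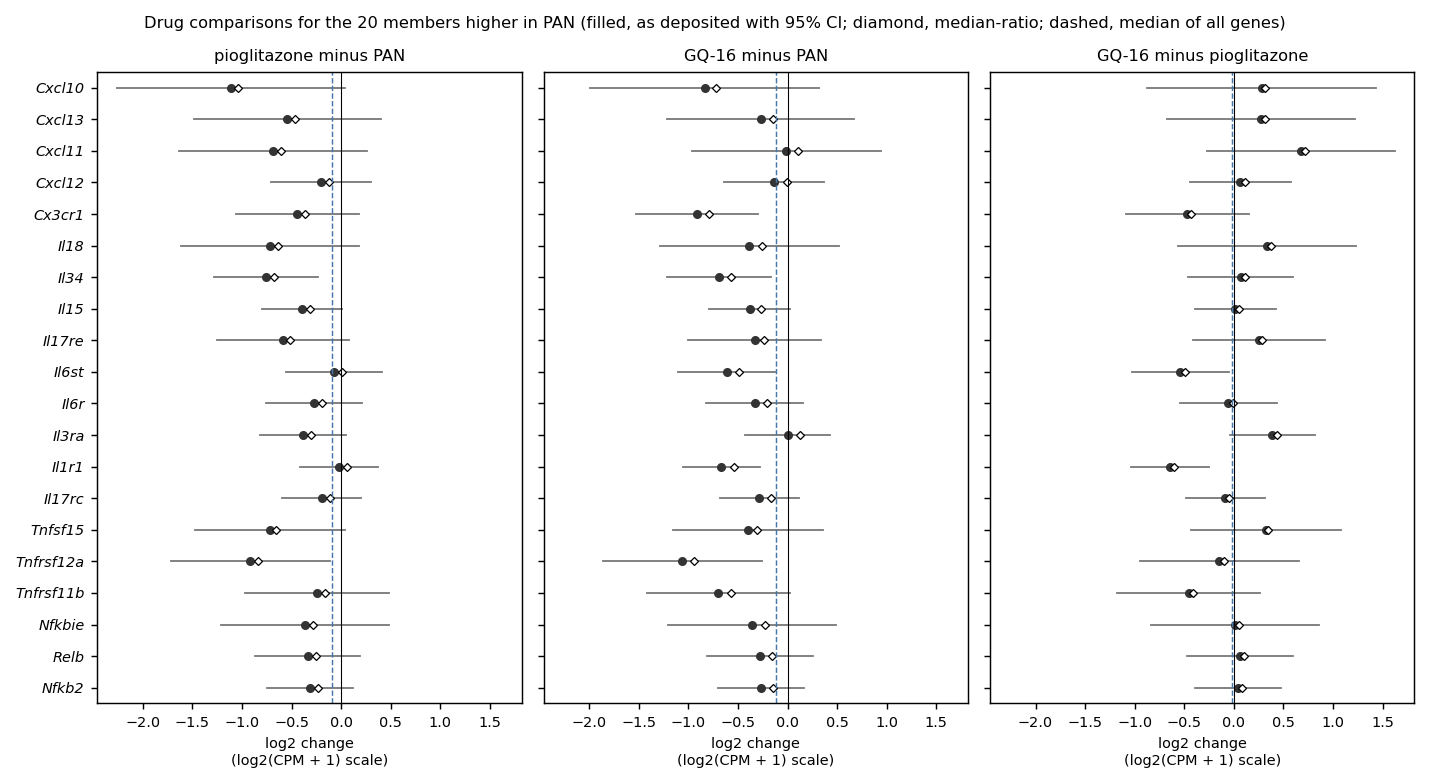
Log2 change of the 20 genes higher in PAN for pioglitazone minus PAN, GQ-16 minus PAN, and GQ-16 minus pioglitazone, with 95% confidence intervals (circles) and the value with median-ratio scaling (diamonds). Against PAN, 20 of 20 circles with pioglitazone and 19 of 20 with GQ-16 lie below 0, beside dashed medians of all genes at -0.09 and -0.11. The 20 genes were chosen as higher in the same PAN rats, so these signs are not independent of that choice. Il1r1 is near 0 with pioglitazone and at -0.67 with GQ-16.

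Treated rats were also set against controls. With pioglitazone 1 gene was called by limma, Tnfrsf11b, beside 4.98% of all genes, and 20 genes had an unadjusted p under 0.05, beside 28.5%. Tnfrsf11b was at 42.9, 58.7, 51.1 and 47.8 CPM, above every control rat, a change of 1.37 (SE 0.341, limma adjusted p 0.0329) and 1.16 with median-ratio scaling (limma adjusted p 0.0453). Il1r1 also lay above every control rat (change 0.62, limma adjusted p 0.0606), and Tnfrsf14 changed by -0.64 (limma adjusted p 0.0561). With median-ratio scaling Tnfrsf14 was called lower, by -0.86 (limma adjusted p 0.0300), beside 2.85% of all genes. Without control replicate 2, control replicate 3, pioglitazone replicate 2 or pioglitazone replicate 4 no gene was called, beside 0.363%, 0.492%, 0.431% and 1.3% of all genes. Without control replicate 1 there were 7, beside 12.6% of all genes. With voom Tnfrsf14 was the 1 called gene, beside 1.89% of all genes. With libraries numbered under 25 only it was Ccl5, a chemokine of T cells and platelets, at -0.99 (limma adjusted p 0.0129), beside 2.16% of all genes. Quantile normalization gave 3 calls (beside 2.9%), library number with median-ratio scaling 3 (beside 3%) and only the groups compared 2 (beside 3.6%). The podocyte and leukocyte covariates left 0 (beside 1.46% and 0.734%). Socs1, on the pathway list, was higher than control with both drugs, by 1.69 with pioglitazone (limma adjusted p 0.0176) and 2.09 with GQ-16 (limma adjusted p 0.0223).

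With GQ-16 none of the 69 genes was called against control by limma, beside 0.151% of all genes, with 19 genes at an unadjusted p under 0.05 (beside 23.9% of all genes) and a smallest limma adjusted p of 0.0850. Voom on the recovered reads also called 0 (beside 0.265% of all genes), while leaving out control replicate 1 gave 10 calls (beside 11.9% of all genes). Cxcl11 was at 37.7, 16.4, 36.5 and 53.2 CPM with GQ-16, a mean of 35.9 ± 15.1 CPM beside 37.0 ± 20.9 CPM in PAN and 22.6 ± 10.4 CPM with pioglitazone (SD, n = 4). Its change from control was 1.69 (95% interval 0.74 to 2.64, limma adjusted p 0.0896), and GQ-16 replicate 2 lay below control replicate 1. Cxcl13 was at 12.8, 14.9, 22.8 and 28.6 CPM with GQ-16, above every control rat, a change of 1.56 (95% interval 0.62 to 2.51, limma adjusted p 0.0965). Il2rb, the beta subunit of the interleukin 2 and 15 receptors on NK and T cells, was at 4.99, 4.78, 4.65 and 4.33 CPM in control and at 3.33, 2.36, 2.44 and 1.48 CPM with GQ-16, all lower. Its change was -0.77 (95% interval -1.16 to -0.37, limma adjusted p 0.0850), and with median-ratio scaling Il2rb was called lower, by -0.91 (limma adjusted p 0.0457), beside 0.741% of all genes. It was also the 1 call with quantile normalization, beside 0.507%.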

How the data were processed

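Poly(A) RNA of glomeruli from 16 rats was read as pairs of 150 bases from stranded libraries, per the labels' protocols. The submitters' processing notes name HISAT2, featureCounts, Subread, limma and the build Rnor_6.0, with no version or role, and whether counting used strand is not given in the sources used here. The deposited values are log2 CPM made by the authors. Their form shows 0.5 read added to each count and 1 to each total, no further library factor, and 2 CPM reached in at least 8 libraries by every listed gene. Undoing this gave whole reads (within 0.1) for 100% of values. No libraries of a group agreed within counting error (chi-square per gene 13.3 to 297).

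From these values limma 3.58.1 in R 4.3.3 was fitted to log2(CPM + 1), with 4 group means over all 16 libraries and a variance trend, and p-values were adjusted by Benjamini-Hochberg over 13222 genes. Genes with an adjusted p under 0.05 are called. The pseudocount of 1 understates changes of low genes. All tests were two-sided. The script was tested on simulated data.

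The genes, roles, marker lists and pathway list were chosen with earlier results of these data known. Genes named with a value in every rat are, in each role, up to 4 called genes with the smallest p in PAN against control, a set of 19 named in advance of this fit, and the 3 with the smallest p in each comparison with a drug. Alternatives were median-ratio scaling, quantile normalization, voom on recovered reads, a pseudocount of 0.1, a mean of at least 10 CPM, only the groups compared, the library title number (25 or higher) as a covariate, and leaving out each rat. Chosen after seeing the data were libraries under number 25 alone, median-ratio scaling without PAN replicate 1, and the podocyte or leukocyte marker sum as a covariate. Symbols were matched to RefSeq GRCr8 for all 69 genes. Gene coordinates in Rnor_6.0 are not used here. The values of 1 gene are not reported here, though it stays in the counts.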

Additional observations from a re-analysis of the deposited data

Results flagged for a closer look

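Each named gene was examined in each group of 4 rats by Dixon's 95% limit for 4 values, on log2 CPM, to see whether 1 rat stood apart. This was so in 9 of 128 groups, and chance flags about 1 in 20, or 6.4. In PAN replicate 1, Cxcl10 was at 5.294 beside 3.03 to 3.24 in the other PAN rats, and Tnfsf15 was at 2.833 beside 1.39 to 1.53. PAN replicate 4 was low for Il15 at 3.532, with the others at 3.88 to 3.94. Control replicate 1 was high for Cxcl12 at 5.579 (others 4.75 to 4.86), and control replicate 4 was low for Cxcr4 at 2.304 (others 2.88 to 2.99). Pioglitazone replicate 4 was high for Cxcl12 at 6.111 (others 5.48 to 5.58) and for Nfkb2 at 6.27 (others 5.56 to 5.62). GQ-16 replicate 4 was high for Il15 at 3.922 (others 3.19 to 3.25), and GQ-16 replicate 1 was low for Rela at 6.597 (others 6.88 to 6.94).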

How the results depend on the processing

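The count of the 69 genes called in PAN against control, 20 as deposited, was 8 with median-ratio scaling, 7 with quantile normalization, 6 with voom, 1 with the library number covariate, 2 with that covariate and median-ratio scaling, 0 with libraries numbered under 25 only (where PAN is 1 rat, assumed to vary like the other groups, so values under this setting rest on it), 1 and 0 with the podocyte and leukocyte covariates, and 2 without PAN replicate 1 under median-ratio scaling. With a pseudocount of 0.1 it was 20 (beside 22.4% of all genes), with a mean of at least 10 CPM 16 of 42 (beside 23.8% of the genes tested), with only the groups compared 14 (beside 11.9% of all genes), and with a rat left out 3 to 29. The 3 are without control replicate 2 or 3 (beside 6.5% and 6.34%) and the 29 without control replicate 4 (beside 28.9%). Tnfrsf12a was called in 18 of 20 alternatives, Tnfrsf11b in 16 and Il17re in 13 of 19. For pioglitazone against control the count of 1 became 2 with median-ratio scaling (beside 2.85% of all genes), 3 with quantile normalization (2.9%), 3 with library number and median-ratio scaling (3%), 2 with only the groups compared (3.6%), 0 with either marker covariate, and 0 to 7 with a rat left out, the 7 beside 12.6% of all genes. For GQ-16 against control the count of 0 became 1 with median-ratio scaling (beside 0.741%) or quantile normalization (0.507%) and 0 to 10 with a rat left out, the 10 being without control replicate 1 and beside 11.9% of all genes. For GQ-16 against PAN it became 1 with the podocyte covariate. The cause of these shifts was not tested.

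Signs reversed, in PAN against control, only for genes that were not called. Of the 69 changes 59 were positive as deposited and 43 with median-ratio scaling, beside 11010 and 6542 of all 13222 genes. The values below are for genes of the set named in advance, and reversals of other genes are not listed. Rela was -0.119 with median-ratio scaling, -0.11 with quantile normalization, -0.126 with voom, -0.184 with library number and median-ratio scaling, -0.122 with libraries under 25, -0.089 with the leukocyte covariate and -0.163 without PAN replicate 1 under median-ratio scaling. Nfkbia was -0.128, -0.127, -0.135, -0.12, -0.051 and -0.099 in the same order without the leukocyte covariate. Cxcr4 was -0.045 with quantile normalization, -0.111 with library number and median-ratio scaling, -0.386 with libraries under 25, -0.21 with the leukocyte covariate and -0.197 without PAN replicate 1 under median-ratio scaling. Under that last setting Cx3cl1 was -0.059 and Nfkb1 -0.004. Tnfrsf1a was -0.041 with library number and median-ratio scaling, -0.026 with libraries under 25 and -0.011 with the leukocyte covariate, where Cx3cl1 was -0.05. Tnfrsf1b was -0.017 with libraries under 25. No paired analysis was possible because the labels give no replicate numbers shared between groups. At the depth of these libraries 3 reads are at most 0.225 CPM, and the lowest control levels of Tnfsf15 (0.474 CPM) and Il17re (0.664 CPM) lie above that.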

Other observations

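Within each group the rats were ranked by each gene and by the summed podocyte and leukocyte markers, as a description with 4 rats a group and shared libraries behind both ranks. The order of the rats by Nfkbie was that of the podocyte sum in all 4 groups, and Tnfrsf12a, Cxcl13, Il2ra and Il11ra1 had that order in 3 groups. Cx3cr1 had the order of the leukocyte sum in all 4 groups, and Il1rn in 3. These genes were picked from the 69 for their matches, and no share over all genes stands beside them. The rat with the highest podocyte sum was the highest rat for 14 of the 20 called genes in the control group, 19 in the PAN group, 17 in the pioglitazone group and 14 in the GQ-16 group, beside 57.1%, 45.8%, 46.6% and 40.2% of all genes. Over all 69 genes the shares were 47.8%, 78.3%, 62.3% and 40.6%. In the control group that is below the share of all genes, and with GQ-16 it is about level with it. The mesangial sum was highest in the same rat as the podocyte sum in all 4 groups, so these counts belong to both lists. The leukocyte sum was highest in another rat in 2 groups. In the control group it was replicate 4, highest for 6 of the 20 beside 36.8% of all genes, and in the GQ-16 group replicate 2, highest for 1 of the 20 beside 7.28%. Over all 69 genes these 2 rats were highest for 31 (44.9%) and 14 (20.3%), above the shares of all genes.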
